A study of Mus musculus with 6 samples.

Results

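A set of 10 genes of the endothelium and of the blood-brain barrier was followed from sham surgery to optic nerve crush (ON-CR). They were taken by symbol from the table of normalized expression of the whole optic nerve: Cldn5, Ocln, Slc2a1, Mfsd2a, Abcb1a, Pecam1, Cdh5, Flt1, Plvap and Vcam1, 10 of the 25755 genes measured. All 10 were found and all passed, since no filter on low values was applied, and the lowest estimate for any of them in any library was 51 reads. RNA came from perfused optic nerves of 6 NF1flox/flox;hGFAP-Cre mice at 3 months, 3 after sham surgery (mice 1, 2 and 3) and 3 after ON-CR (mice 4, 5 and 6), the surgery having been done several weeks before. The study used these mice to ask how nerve injury changes the tissue in which optic glioma forms. Sham and ON-CR mice alike carry floxed NF1 alleles and a Cre driven by the human GFAP promoter, which acts in neuroglial progenitors, so that neither group is wild type and neither was designed to lose NF1 in endothelial cells. Nothing in the labels pools animals, and each library was counted as 1 mouse. The paper's section on RNA extraction and PCR, however, describes 2 mice per sample. It does not say whether this held for the sequenced RNA, so a library may pool animals.

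Endothelial cells of the central nervous system restrict what passes from blood to tissue. Claudin and occludin strands seal the space between the cells, VE-cadherin holds the adherens junctions, and carriers and efflux pumps move glucose, lipids and drugs across the cell. Transcytosis in vesicles is kept low, Wnt and Norrin ligands from neighbouring neural cells maintain the programme, and inflamed vessels display adhesion molecules that arrest leukocytes. PLVAP, the protein of fenestral and caveolar diaphragms, is the usual mark of endothelium that lacks the barrier.

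Expression is given as normalized count, the estimated reads on a gene divided by a factor of its library. Libraries held between 17414091 and 23621006 estimated reads, and a value between 0.885 and 1.06 stood for 1 read. Gfap, the astrocyte filament, was 114900 ± 13590 (SD, n = 3) in sham mice and 179200 ± 23260 after ON-CR (adjusted p = 0.0859), and Aif1, the gene of the microglial protein Iba1, rose from 544.8 ± 78.98 to 1310 ± 419.6 (adjusted p = 0.026), a call lost when any mouse but mouse 5 was left out (0.0651 to 0.175). Each gene's adjusted p is that of limma with the whole table of 25755 genes as its family, and a gene was called where it did not exceed 0.05. The labels give no sex, but the Y-linked Ddx3y was 1645, 1291 and 1544 in sham mice and 976.1, 4.193 and 0 in ON-CR mice 4, 5 and 6, whereas Xist was 2.138 to 30.93 in sham mice and 2708, 6357 and 6131 after ON-CR. Sex and surgery therefore cannot be told apart in any comparison below, and the library of mouse 4 held transcripts of both kinds. Whether that library came from more than 1 animal was not tested.

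Of the 10 genes only Vcam1, which encodes the adhesion receptor for integrin alpha4beta1 on leukocytes, passed the test between ON-CR and sham, and it rose 1.76-fold (95% interval 1.41 to 2.19). Among all genes the test called 540, or 2.10%, with 250 higher (0.971%) and 290 lower (1.13%), and 4.25% of the 9719 genes with a mean of at least 200, a level that all of the 10 but Plvap reached. The 9 others did not pass. Of the 10, 4 had a log2 fold change above 0 and 6 had one below, although scaling each library to its total instead moved Slc2a1, Mfsd2a and Pecam1 from below 0 to above it. The median over the 10 was -0.06, against 0.03 over all genes. Sham and ON-CR values were fully separated for 3 of the 10, Vcam1, Abcb1a and Cdh5, as they were for 21.6% of all genes in either direction. For 8 of the 10, all but Vcam1 and Plvap, the 95% interval of the log2 fold change lay within 1 of 0. In whole nerve, fewer endothelial cells and less RNA per cell cannot be told apart. Scaling by the total shifted the median of all genes from 0.03 to 0.15 and the called genes to 421 higher and 195 lower.

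**Figure D1:**
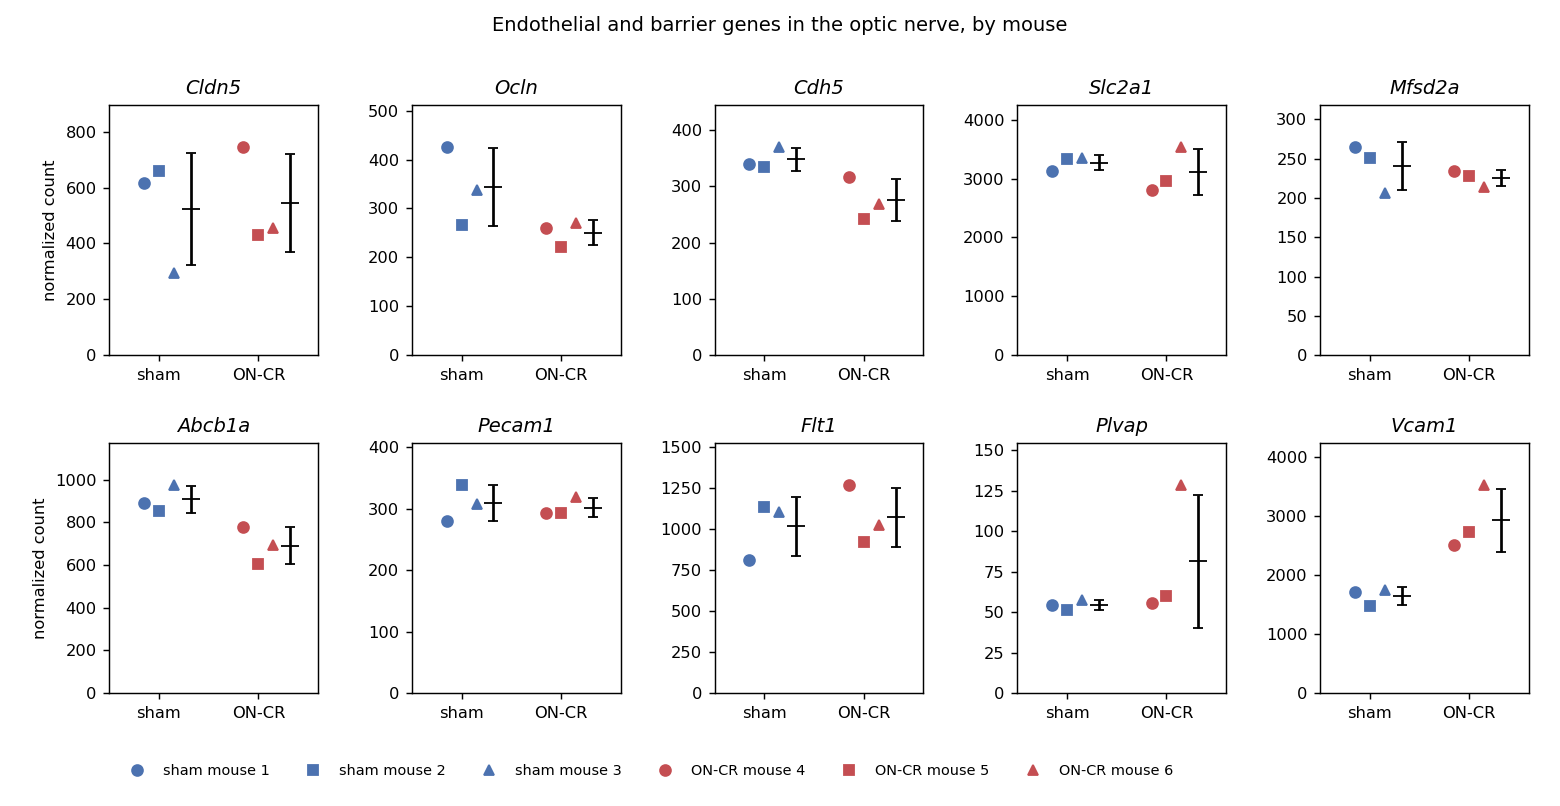
Normalized count of each of the 10 genes by mouse, sham in blue and ON-CR in red, with the group mean and SD (n = 3) in black beside the points; each panel has its own linear axis from 0. Vcam1 lay between 1481 and 1756 in sham mice and between 2516 and 3537 after ON-CR, while Plvap stood apart in mouse 6 alone, at 128.8.

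**Figure D2:**
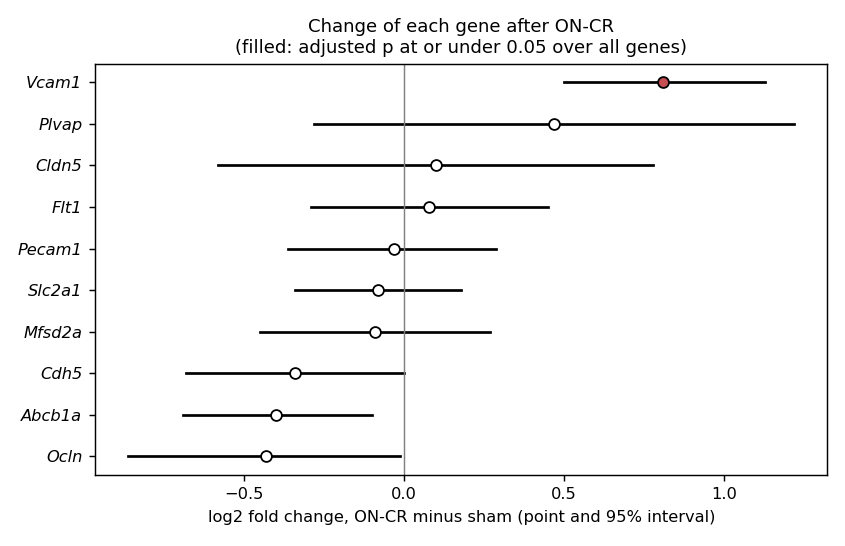
Log2 fold change of each gene, ON-CR minus sham, as a point with its 95% interval from limma; a filled point marks a called gene. Only Vcam1 is filled, at 0.81, and the interval of Plvap is the widest, from -0.28 to 1.22.

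Vcam1 (ENSMUSG00000027962.14) lies on the minus strand at chr3:116109949-116129688 of GRCm38, the assembly also named mm10. The protein is a cell surface member of the immunoglobulin superfamily, displayed by inflamed and venous endothelium and also made by some astrocytes, neural stem cells and stromal cells. The start of its coding sequence is shown to identify the gene that carries the result, with the start codon in capitals. It covers bases 322 to 471 of the annotated transcript Vcam1-201, and the values are counts per gene that do not tell its transcripts apart.
Vcam1: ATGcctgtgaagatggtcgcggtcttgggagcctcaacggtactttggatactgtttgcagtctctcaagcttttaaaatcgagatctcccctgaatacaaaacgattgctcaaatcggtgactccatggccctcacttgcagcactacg
Sham mice 1, 2 and 3 had 1715, 1481 and 1756 normalized counts of Vcam1, and ON-CR mice 4, 5 and 6 had 2516, 2729 and 3537. Every ON-CR mouse exceeded every sham mouse, and mouse 6 was the highest. The sham mean was 1651 ± 148.3 and the ON-CR mean 2927 ± 538.6 (SD, n = 3 each), and the log2 fold change was 0.81 (SE 0.14, adjusted p = 0.0207). A two-sided exact permutation test of the 6 values gave p = 0.1, the smallest that 3 mice against 3 allow. With sham mouse 1, 2 or 3 left out the adjusted p from limma was 0.0717, 0.132 or 0.0604, and without ON-CR mouse 6 it was 0.105, so that the call rested on each of these mice, while the log2 fold change stayed between 0.67 and 0.92. The antisense gene Gm43109, which overlaps exons of Vcam1, reached at most 4.985.

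Leukocyte adhesion involves selectins that slow the rolling cell, immunoglobulin receptors such as VCAM1 and ICAM1 that stop it, and integrins on the leukocyte that bind them. In a list of 19 such genes and their ligands, 3 were called higher and 0 lower, the median log2 fold change was 0.58 and 14 were above 0. Over all genes, 0.971% were called higher and 52.8% were above 0. The list mixes genes of endothelium and of leukocytes, so its median does not describe vessels alone. The called genes were Vcam1, Itgb2, the beta2 chain of leukocyte integrins, and Lcn2, a secreted iron-scavenging lipocalin that is no adhesion molecule and is known from reactive astrocytes and inflamed endothelium. Itgb2 was 577.3, 408.2 and 433.9 in sham mice and 1139, 761.1 and 1429 after ON-CR, a log2 fold change of 1.20 (SE 0.22, adjusted p = 0.0256). Lcn2 was 49.76 ± 11.24 in sham mice and 579.3 ± 88.02 after ON-CR (SD, n = 3 each, log2 fold change 3.53, SE 0.22, adjusted p = 0.000136). Itgb2 missed the threshold when any mouse but mouse 5 was left out, at an adjusted p of 0.0528 to 0.161, whereas Lcn2 passed in every setting tried, with an adjusted p of at most 0.00898.

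The remaining endothelial adhesion genes given here were chosen with their values in view, and those described one by one were higher in mean. Others of the list were not. Alcam, its highest gene, had a log2 fold change of -0.01, Cd99l2 of -0.17 and Cx3cl1 of -0.14. Icam2 was little higher, at 0.21. For each of these the groups overlapped, and none was called. Icam1, the receptor for beta2 integrins, was 549.7, 398.4 and 543.8 in sham mice and 798.7, 492.5 and 1005 after ON-CR, and the groups overlapped (log2 fold change 0.58, SE 0.24, adjusted p = 0.286). Ackr1, the venular chemokine carrier, was 66.55, 42.5 and 29.81 against 84.66, 92.72 and 224.9 (log2 fold change 1.44, SE 0.41, adjusted p = 0.116). Mouse 6 had the highest value of Vcam1, Icam1 and Ackr1. Selp, the gene of P-selectin, was at most 2.817 in sham mice and 14.11, 3.145 and 29.07 after ON-CR (adjusted p = 0.181), and Sele, the gene of E-selectin, was 0 in every sham mouse and 4.985, 0 and 7.268 after ON-CR (adjusted p = 0.371). Most of these selectin values lie near the floor of 3 reads, a normalized count of 2.656 to 3.183, which covers counting error only. The integrin chains that bind VCAM1 were 121.7 ± 39.85 and 173.7 ± 94.95 for Itga4 (adjusted p = 0.635), and 2208 ± 132.8 and 2075 ± 226.8 for Itgb1 (adjusted p = 0.761), in sham and ON-CR mice (SD, n = 3 each).

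**Figure D3:**
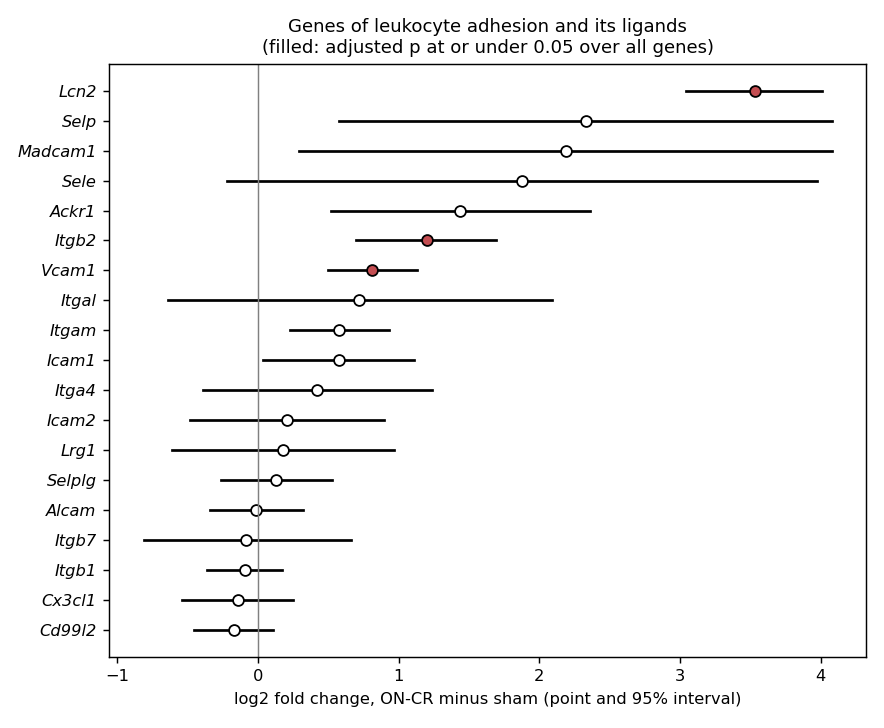
Log2 fold change, ON-CR minus sham, of the 19 genes of leukocyte adhesion and its ligands, each with its 95% interval from limma; filled points are called genes. Lcn2 at 3.53, Itgb2 at 1.20 and Vcam1 at 0.81 are filled, and the selectin genes Sele and Selp and the addressin gene Madcam1, all at low counts, have the widest intervals.

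Markers of other cells were summed in the same libraries. The summed level of 12 microglia and macrophage genes was 20100 to 25900 in sham mice and 27700 to 43700 after ON-CR. Of the 12, 5 were called higher, among them Cd68, Itgax and C1qa, and 0 lower. Over all genes, 0.971% were called higher and 1.13% lower. The rise was not uniform, since 9 of the 12 had a log2 fold change above 0. P2ry12, Tmem119 and Mrc1 lay below it, at -0.35, -0.27 and -0.14, and none of these was called. Cd68 and Itgax passed in every setting tried, and C1qa missed the threshold without sham mouse 1, sham mouse 2 or ON-CR mouse 6 (adjusted p 0.0544, 0.0695 and 0.0854 from limma). The sum of 10 astrocyte genes was 197000 to 236000 and 269000 to 302000, with 0 called higher and 1 lower, S100b, and a median log2 fold change of 0.07. Gfap alone set these sums apart, and the 9 others summed to 97700 to 114000 in sham mice and 97600 to 112000 after ON-CR. S100b missed the threshold without sham mouse 1, sham mouse 2, ON-CR mouse 4 or ON-CR mouse 6 (adjusted p 0.0548 to 0.124). Fibroblast and meningeal genes summed to 30900 to 35700 in sham mice and 19000 to 29700 after ON-CR, with 0 of 10 called. Their median log2 fold change was -0.44 and 1 of the 10 was above 0. Groups did not overlap for 6 of the 10, against 21.6% of all genes. Oligodendrocyte genes summed to 1290000 to 1840000 in sham mice and 629000 to 745000 after ON-CR, with 7 of 8 called lower. The 7 proliferation genes summed to 241 to 321 and 671 to 1280, with 4 called higher. None of the genes of these lists was at 0 in any library, and their part in the rise of Vcam1 was not tested. Vcam1 was also set against Pecam1 of the same library. The log2 ratio was 2.61, 2.12 and 2.51 in sham mice and 3.10, 3.22 and 3.47 after ON-CR. This ratio separated the groups as the level did (two-sided exact permutation test, p = 0.1). Pecam1 itself had a log2 fold change of -0.03, so the ratio largely restates the level of Vcam1. Among the other ratios computed, the groups overlapped for Abcb1a and Plvap over Pecam1 (two-sided exact permutation test, p = 0.2 for each). They also overlapped for Plvap over Cldn5 (two-sided exact permutation test, p = 0.7).

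Among 14435 genes with a mean normalized count of at least 50, the gene whose pattern over the 6 libraries was most like that of Vcam1 was Rcc2, a regulator of chromosome condensation, with a Pearson r on the log2 scale of 0.9972. It was 318.3, 294.8 and 322.1 in sham mice and 401.8, 438.2 and 493.2 after ON-CR. This correlation is a description over 6 libraries that also differ by surgery, and 133 genes had r above 0.95.

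None of the junction genes Cldn5, Ocln and Cdh5 passed the test. Cldn5 (ENSMUSG00000041378.2, chr16:18776847-18778262, plus strand) encodes claudin-5, the main tight junction claudin of brain endothelium. It was 616.5, 657.8 and 293.0 in sham mice and 746.8, 430.9 and 454.8 after ON-CR. Both groups held a high and a low mouse and they overlapped broadly, with means of 522.5 ± 199.8 and 544.2 ± 175.9 (SD, n = 3 each, log2 fold change 0.10, 95% interval -0.58 to 0.78, adjusted p = 0.914). Its sign turned without sham mouse 3, to -0.27, and without ON-CR mouse 4, to -0.15. The interval of Cldn5 overlapped that of Vcam1, 0.50 to 1.13 on the same scale, and no test compared these genes.

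Ocln (chr13:100496507-100552718, minus strand), for occludin, was 426.6, 266.5 and 337.2 in sham mice and 260.2, 221.2 and 270.0 after ON-CR. The highest ON-CR value lay just above the lowest sham value, and the log2 fold change was -0.43 (SE 0.19, 95% interval -0.86 to -0.01, adjusted p = 0.314). Cdh5 (chr8:104101625-104144511, plus strand), for VE-cadherin of the adherens junction, was 339.6, 333.8 and 371.0 against 317.1, 242.2 and 268.9. Its groups did not overlap, with means of 348.1 ± 20.01 and 276.1 ± 37.96 (SD, n = 3 each) and a log2 fold change of -0.34 (SE 0.15, adjusted p = 0.325).

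In the list of 15 junction genes, which holds Cldn5, Ocln and Cdh5, 0 were called higher and 1 lower, with a median log2 fold change of -0.11 and 6 above 0. The called gene was Lsr, which encodes the angulin of tricellular tight junctions. It was 514.4, 528.2 and 601.7 in sham mice and 274.0, 200.6 and 149.8 after ON-CR (log2 fold change -1.43, SE 0.21, adjusted p = 0.00842). All ON-CR mice were below all sham mice, but Lsr is also made outside endothelium, and its adjusted p was 0.0567, 0.0537 and 0.0518 without sham mouse 2, sham mouse 3 or ON-CR mouse 6. Cdh1, the epithelial cadherin, in a list of epithelial genes of which 6 of 11 were at 0 in some library, fell from 2067 ± 454.4 to 1173 ± 160.4 (SD, n = 3 each, adjusted p = 0.0498) but missed the threshold in 11 of 14 other settings, at an adjusted p of up to 0.202. The sum of that list was 1860 to 10800 in sham mice and 1380 to 7480 after ON-CR. Without its highest gene, Bpifa1, the sum was 1860 to 3190 and 1380 to 1880, so the groups overlapped only narrowly. The part of that list in the junction values was not tested.

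Neither of the solute carriers differed between the groups by more than the spread between mice. Slc2a1 (ENSMUSG00000028645.11, chr4:119108711-119137983, plus strand), for the glucose transporter GLUT1 of barrier endothelium and astrocytes, was 3121, 3332 and 3356 in sham mice and 2799, 2966 and 3544 after ON-CR. The ON-CR mice spanned the whole sham range, and the fold change was 0.945 with a 95% interval from 0.789 to 1.13 (adjusted p = 0.794). Mfsd2a (chr4:122946850-122961188, minus strand), for the carrier of lysophosphatidylcholine with docosahexaenoic acid that also keeps transcytosis low, was 265.3, 250.6 and 206.6 against 234.3, 227.5 and 213.9. Its ON-CR values all lay inside the sham range, and the fold change was 0.940 (95% interval 0.731 to 1.21, adjusted p = 0.848).

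Abcb1a (ENSMUSG00000040584.8, chr5:8660077-8748575, plus strand), for the drug efflux pump P-glycoprotein, was 892.2, 855.3 and 977.3 in sham mice and 776.7, 603.8 and 693.7 after ON-CR. Every ON-CR mouse was below every sham mouse, with means of 908.2 ± 62.56 and 691.4 ± 86.48 (SD, n = 3 each) and a log2 fold change of -0.40 (SE 0.13, 95% interval -0.69 to -0.10). The adjusted p was 0.175, and from 0.144 to 0.366 over the other settings, so the difference did not pass in any. The near-identical paralog Abcb1b, named after its values were seen, was 56.54, 52.31 and 49.74 against 81.57, 80.82 and 99.02 (log2 fold change 0.71, SE 0.24, adjusted p = 0.179). How reads were divided between the copies is not given in the sources used here, so both values are uncertain. Among 17 barrier transporters, these 3 included, 0 were called, the median log2 fold change was -0.09 and 7 had groups that did not overlap, against 21.6% of all genes. The largest difference among those with a mean of at least 50 was that of Slc7a5, a chain of the large neutral amino acid transporter, at 322.6, 401.1 and 293.0 in sham mice and 499.5, 474.9 and 623.0 after ON-CR (log2 fold change 0.65, SE 0.17, adjusted p = 0.083).

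Pecam1 and Flt1 mark endothelial identity. Pecam1 (chr11:106654217-106750628, minus strand), for the junctional adhesion receptor CD31, was 280.3, 339.1 and 307.4 in sham mice and 292.1, 292.6 and 318.8 after ON-CR. The ON-CR values lay within the sham range, at a fold change of 0.977 (95% interval 0.780 to 1.22, adjusted p = 0.939). Flt1 (chr5:147561604-147726011, minus strand), for the VEGF receptor VEGFR1, was 810.7, 1133 and 1107 against 1272, 921.5 and 1024. The groups overlapped, and the fold change was 1.06 (95% interval 0.816 to 1.37, adjusted p = 0.869). Of 25 pan-endothelial genes, which include Pecam1, Flt1 and Cdh5, 0 were called, 10 were above 0 and the median was -0.05. All 25 were detected in every library, and their sum was 7220 to 8250 in sham mice and 6830 to 8360 after ON-CR, although whole-nerve RNA does not show which cells expressed them. The largest difference in that list, among genes with a mean of at least 50, was that of Tek, the receptor for angiopoietins, at 280.1, 240.8 and 220.7 in sham mice and 163.5, 149.9 and 159.9 after ON-CR (log2 fold change -0.64, SE 0.17, adjusted p = 0.0895).

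Plvap (chr8:71497765-71511752, minus strand) had the lowest level of the 10 genes. It was 54.12, 51.35 and 57.29 in sham mice and 55.84, 59.76 and 128.8 after ON-CR. Mice 4 and 5 lay at or near the sham range, and only mouse 6 was high, so that the ON-CR coefficient of variation was 50.4%. The log2 fold change was 0.47 (SE 0.34, 95% interval -0.28 to 1.22, adjusted p = 0.55), and 0.09 without mouse 6. A fold change of up to 2.33 therefore remained within the interval. Among 10 genes of caveolae and transcytosis, which include Plvap and Mfsd2a, 0 were called higher and 1 lower, with a median of -0.25. Their sum was 21900 to 24500 in sham mice and 15500 to 20700 after ON-CR. Without Cavin1, the highest, it was 7610 to 8210 and 6090 to 6960. Groups did not overlap for 4 of the 10, against 21.6% of all genes. The called gene was Cavin3, for a coat protein of caveolae, at 1234, 1529 and 1252 in sham mice and 907.8, 689.3 and 458.8 after ON-CR (log2 fold change -1.01, SE 0.22, adjusted p = 0.0454). Its adjusted p ranged from 0.0148 to 0.223 and missed the threshold in 7 of 14 other settings.

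The levels per kilobase of exon set the genes in order. In sham mice Slc2a1 led with 932 ± 36.8 normalized counts per kilobase (SD, n = 3). Cldn5 with 369 ± 141 and Vcam1 with 323 ± 29.1 followed, and these neighbours overlapped between mice. Abcb1a had 182 ± 12.5 and stood clear of its neighbours. Mfsd2a with 112 ± 14.2, Flt1 with 92.8 ± 16.3, Cdh5 with 82.8 ± 4.76, Ocln with 81.3 ± 19.0 and Pecam1 with 74.4 ± 7.09 followed, each overlapping with its neighbours among these 5, and Plvap came last with 27.3 ± 1.5 and overlapped with none. After ON-CR Vcam1 stood at 574 ± 106 per kilobase, above Cldn5 with 384 ± 124 although their ranges overlapped, and Slc2a1 remained the highest with 885 ± 112. Plvap was still the lowest, with 41.0 ± 20.6.

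To set the genes against other endothelial transcripts of the same nerve, each was expressed as a log2 difference from the mean log2 level of 12 endothelial genes, none of them among the 10: Tek, Tie1, Emcn, Erg, Esam, Egfl7, Robo4, Ramp2, Ptprb, Mmrn2, Clec14a and Sox18. That mean was 7.34 ± 0.11 in sham mice and 7.19 ± 0.11 after ON-CR (SD, n = 3 each, two-sided exact permutation test, p = 0.3). Vcam1 lay 3.48, 3.06 and 3.50 above it in sham mice and 4.11, 4.11 and 4.70 after ON-CR, a difference of 0.96 on the log2 scale that ranged from 0.76 to 1.06 when any single mouse was left out. Plvap lay 1.48, 1.76 and 1.42 below it in sham mice and 1.36, 1.38 and 0.07 below it after ON-CR. On this scale the Plvap groups did not overlap, but the difference was 0.62 with all mice and 0.18 without mouse 6. For Vcam1 and Plvap the exact permutation p was 0.1, the smallest possible here. The 8 others differed by -0.28 to 0.25, with exact permutation p from 0.3 to 0.8. Cldn5 and Flt1 lay at 0.25 and 0.23, Ocln, Abcb1a and Cdh5 at -0.28, -0.25 and -0.19, and the groups of all 8 overlapped.

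**Figure D4:**
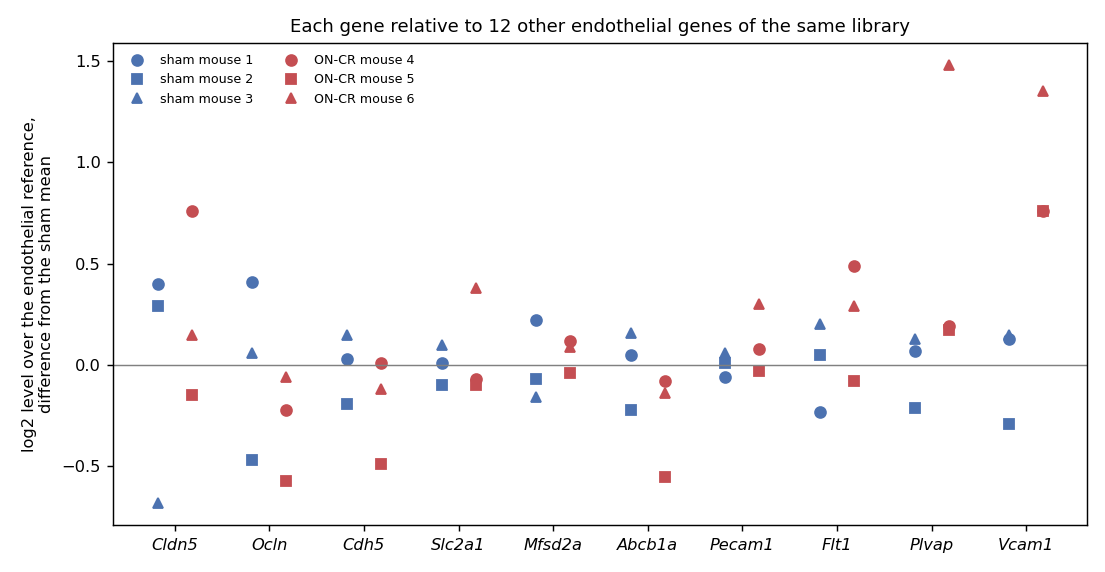
Log2 level of each gene relative to the mean of 12 other endothelial genes of the same library, shown as the difference from the sham mean of that gene; sham mice are blue and ON-CR mice red. The 3 ON-CR mice lie above all sham mice for Vcam1, and for Plvap mouse 6 lies far above mice 4 and 5.

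Signals that build and maintain the barrier were read from 3 further lists. Of 22 genes of Wnt and Norrin control, 0 were called, 8 were above 0 and the median log2 fold change was -0.14. Their sum was 10900 to 11900 in sham mice and 10200 to 10700 after ON-CR. Without Ctnnb1, the highest, it was 7740 to 8260 and 6960 to 7570. Groups did not overlap for 7 of the 22, against 21.6% of all genes. The largest difference, among genes with a mean of at least 50, was that of Nkd1, a feedback inhibitor of Wnt signalling, at 175.1, 262.1 and 157.8 in sham mice and 103.7, 94.35 and 88.26 after ON-CR (log2 fold change -1.02, SE 0.23, adjusted p = 0.0542). Of 15 genes of VEGF and angiopoietin signalling 0 were called, with a median of -0.20, and the largest difference was that of Angptl4, at 381.0 ± 95.93 and 207.6 ± 54.5 (SD, n = 3 each, log2 fold change -0.88, adjusted p = 0.114).

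Of 15 genes of angiogenic tip cells and permeable endothelium, which include Plvap, 0 were called higher and 2 lower. Their sum was 7200 to 7710 in sham mice and 4120 to 6170 after ON-CR. Without Trp53i11, the highest, it was 2740 to 2990 and 2320 to 3060, so that the groups overlapped. Single genes had groups that did not overlap in 7 of the 15, against 21.6% of all genes. Apln, for the apelin peptide of sprouting tip cells, was lower after ON-CR, at 204.4, 190.8 and 189.0 against 471.2, 494.9 and 332.5 in sham mice (log2 fold change -1.13, SE 0.18, adjusted p = 0.0123). Apln is X-linked, and the sex-linked transcripts above differed between the groups, so for Apln too surgery and sex cannot be told apart. Trp53i11, a p53-inducible membrane protein, fell from 4576 ± 359.2 to 2273 ± 721.9 (SD, n = 3 each, log2 fold change -1.05, SE 0.19, adjusted p = 0.0219). Apln missed the threshold without sham mouse 1, sham mouse 2 or ON-CR mouse 6 (adjusted p 0.0704, 0.0912 and 0.103), and Trp53i11 without any single sham mouse or ON-CR mouse 6 (adjusted p 0.0883 to 0.173). Angpt2, a TIE2 ligand of the same list named after its values were seen, was 548.6, 455.1 and 482.7 in sham mice and 862.5, 648.9 and 847.3 after ON-CR (log2 fold change 0.66, SE 0.15, adjusted p = 0.0568).

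**Figure D5:**
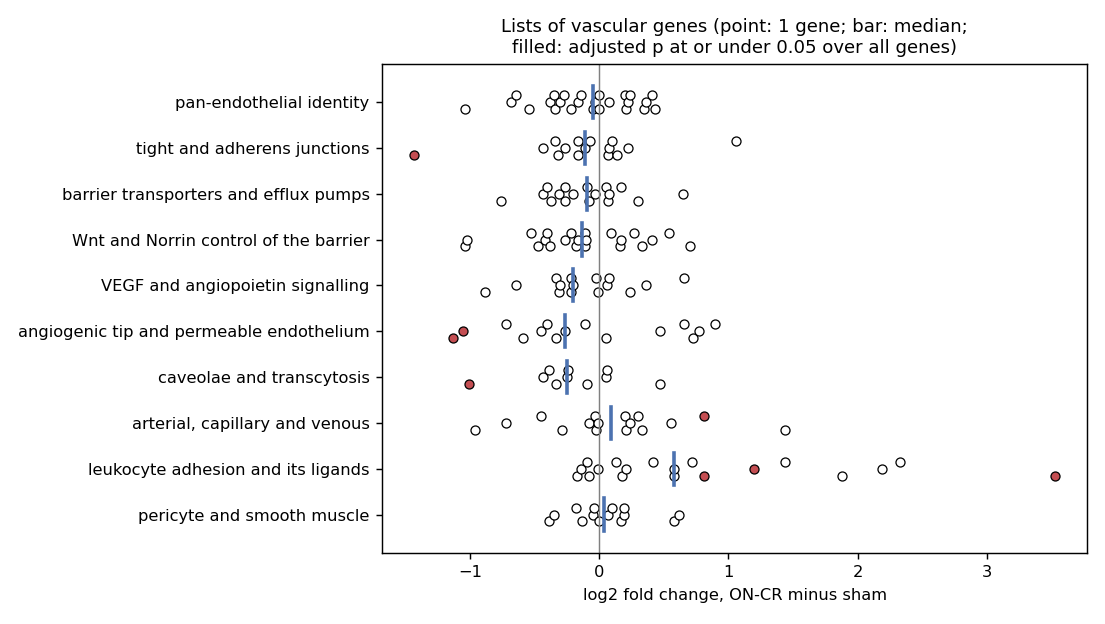
Log2 fold change, ON-CR minus sham, of every gene in 10 vascular lists; each point is 1 gene, the bar is the median of the list and filled points are called genes. The median of leukocyte adhesion is 0.58, the medians of the other lists lie between -0.26 and 0.10, and some genes are in more than 1 list. The leukocyte adhesion list also holds genes of leukocytes, such as Itgb2, and Lcn2, which is no adhesion molecule.

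The 250 bases before the start of 6 of the 10 genes were in the RefSeq promoter table of GRCm38.p6, which held no entry for Vcam1, Pecam1, Cdh5 or Plvap. They were searched on both strands for GGAAG, the core letters of the ETS factors of endothelium, and for CTTTGA, the core letters of the TCF/LEF factors of Wnt signalling, found in 64.1% and 13.8% of 32851 such windows. The windows of Cldn5, Ocln and Slc2a1 held neither. That of Abcb1a held each 2 times, but it belongs to a start far upstream of the gene position given above and is not shown. Mfsd2a and Flt1 are shown as the others whose windows hold either. Capitals mark the letters searched, and a match describes the sequence and is no evidence of binding. The window of Mfsd2a, chr4:122961189-122961438 on the minus strand, holds CTTTGA 1 time, and that of Flt1, chr5:147726012-147726261 on the minus strand, holds GGAAG 3 times.
Mfsd2a: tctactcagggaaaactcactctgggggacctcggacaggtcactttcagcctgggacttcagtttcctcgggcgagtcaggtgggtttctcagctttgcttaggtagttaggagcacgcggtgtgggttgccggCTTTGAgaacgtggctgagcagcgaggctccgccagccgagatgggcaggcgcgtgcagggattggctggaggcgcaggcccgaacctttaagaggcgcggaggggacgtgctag
Flt1: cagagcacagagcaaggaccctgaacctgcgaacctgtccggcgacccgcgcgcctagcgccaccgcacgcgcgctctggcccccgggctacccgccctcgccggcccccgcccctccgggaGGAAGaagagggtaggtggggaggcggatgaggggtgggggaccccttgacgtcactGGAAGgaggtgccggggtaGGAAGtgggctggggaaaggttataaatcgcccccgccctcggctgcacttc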

How the data were processed

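Bulk RNA sequencing covered 6 optic nerve samples, 3 sham and 3 ON-CR by their labels. The authors aligned and quantified reads with DRAGEN against Ensembl, assigned them to mm10 gene models and applied median normalization in Partek Flow 10.0. The deposited signal is therefore an estimated count divided by a factor per library. Between 69.7% and 71.7% of values above 0 were whole multiples of 1 read within 0.05 reads, so no count model was used, although the study itself had tested counts.

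Values were tested as log2(value + 1), a scale that understates changes of low genes, in limma 3.58.1 (R 4.3.3) with the trend option, and p-values were adjusted by Benjamini and Hochberg's method across 25755 genes. A gene was called at an adjusted p at or under 0.05. In simulated data with 200 of 25755 genes changed 4-fold, 189 were called with 11 false calls, and 0 were called when none changed. Single ratios were compared with two-sided exact permutation tests. Replicates differed by more than sampling noise, the chi-square divided by its degrees of freedom being 16.6 to 47.3. Levels per kilobase used exons of protein-coding transcripts in GENCODE annotation of GRCm38. Strand-specific counting is not stated, so overlapping antisense genes cannot be separated.

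The members, the 19 gene lists and the tests were chosen with earlier results of these data known. Named were the 10 genes, the called genes of each list (up to 3 by p), or else the gene with the largest change among those with a mean of at least 50, Gfap, Aif1, Ddx3y, Xist and the 3 genes most like Vcam1, of which 1 is given and the others are not reported here. Alternatives were other pseudocounts, scalings, a filter on a mean value of at least 10, a robust fit, sample weights and leaving out each mouse.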

Additional observations from a re-analysis of the deposited data

How the results depend on the processing

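The sham and ON-CR samples are labelled as separate mice and no label links them in pairs, so no paired analysis was made. Leaving out 1 mouse gave 67 to 854 called genes instead of 540, the fewest without ON-CR mouse 6 and the most without ON-CR mouse 5, and 192, 123 and 258 without sham mice 1, 2 and 3. Fewer mice remained in each such fit, and beyond that the cause was not tested. The other 8 settings gave 521 to 791. Of the 10 genes, 0 to 1 were called when a mouse was left out and 1 under each of the other settings. Vcam1 kept its direction in all 14, at 0.67 to 0.92 without a mouse and 0.81 to 0.94 otherwise, and 0.64 to 0.87 above the median of all genes. Its values were 0.84, 0.74 and 0.86 without sham mice 1, 2 and 3 and 0.67 without ON-CR mouse 6, where it lost its call. Of the genes that did not pass, Cldn5 ranged from -0.27 to 0.31, Pecam1 from -0.10 to 0.04 and Flt1 from -0.08 to 0.18 when a mouse was left out. The reversed values were -0.27 and -0.15 for Cldn5 without sham mouse 3 and ON-CR mouse 4, 0.04 for Pecam1 without sham mouse 2, and -0.08 and -0.05 for Flt1 without sham mouse 1 and ON-CR mouse 4. Scaling to the library total gave 0.05 for Slc2a1, 0.04 for Mfsd2a and 0.09 for Pecam1. It raised the share of called genes that were higher from 46.3% to 68.3%. Ocln, Abcb1a, Cdh5 and Plvap kept their direction in all 14 settings, and none of them was called in any.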

Other observations

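Of 16 genes of arterial, capillary and venous endothelium, 1 was called higher, Vcam1 itself, 0 were called lower, and the median log2 fold change was 0.10. Their sum was 9190 to 10100 in sham mice and 10300 to 12000 after ON-CR, and without Vcam1 it was 7470 to 8660 and 7530 to 8820, so that the groups then overlapped. Named after their values were seen, venous Ackr1 and Vwf, the gene of von Willebrand factor, had groups that did not overlap, Vwf at 441.4, 693.2 and 573.8 in sham mice and 745.8, 705.5 and 1078 after ON-CR (log2 fold change 0.56, SE 0.20, adjusted p = 0.209). The capillary genes Car4, for a carbonic anhydrase, and Rgcc, a cell cycle regulator, were lower in mean, Car4 at 394.3 ± 84.57 and 246.2 ± 97.0 (adjusted p = 0.215) and Rgcc at 1433 ± 124.2 and 774.3 ± 274.4 (SD, n = 3 each, adjusted p = 0.0815 from limma). In the same list Slc16a1 was higher, with groups that did not overlap (log2 fold change 0.30). Nr2f2, Slc38a5 and Ephb4 had 0.24, -0.03 and -0.08, with groups that overlapped. Of the 16 genes, 8 were above 0, so the named genes do not describe the list by vessel type. None of these passed the test.

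Of 14 pericyte and smooth muscle genes, 0 were called and the median was 0.04. Acta2, the actin of smooth muscle, had the largest difference, at 169.8, 283.3 and 369.1 in sham mice and 319.1, 248.5 and 821.4 after ON-CR, the last being mouse 6, and its log2 fold change was 0.62 (adjusted p = 0.515) or 0.11 without that mouse. Of 7 lymphatic genes 0 were called, with a median of 0.06, and Reln, which encodes reelin, was 227.5 ± 7.718 and 170.7 ± 16.36 (SD, n = 3 each, adjusted p = 0.248). Of 9 genes of red cells and platelets 0 were called, the median was -0.63, and the sums of 270000 to 510000 in sham mice and 137000 to 378000 after ON-CR overlapped, so blood-borne transcripts were found in all of these perfused nerves.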
